A study of Mus musculus with 12 samples.

Results

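The classical class I presentation machinery was followed here as 8 genes of the 53647 counted, taken by name and matched to the identifiers in the counts: the heavy chain genes H2-K1 and H2-D1, the light chain gene B2m, the transporter genes Tap1 and Tap2, the tapasin gene Tapbp, the peptidase gene Erap1 and the regulator gene Nlrc5. RNA was sequenced from 12 libraries of mouse cells in 6 groups of 2, a preparation 1 and a preparation 2 in each. Wild-type cells labelled DC2.4 (an immortalized dendritic cell line) or 4T1 (a breast cancer line) had received mRNA for uniSTING, a mimic of the interferon-inducing adaptor STING, or Mock mRNA, which encodes EGFP. Further cells labelled DC2.4 had been incubated for 24 h with extracellular vesicles of 4T1 cells, which had themselves been given uniSTING mRNA (EXOuniSTING) or Mock mRNA (EXOmock). The time after mRNA and, for each library, the choice between transfection reagent and lipid nanoparticles are not given in the sources used here, and vesicle cells and mRNA cells had separate controls.

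A class I molecule is a heavy chain paired with beta-2-microglobulin that shows a peptide from inside the cell to CD8+ T cells. Peptides made in the cytosol are pumped into the endoplasmic reticulum by the TAP1 and TAP2 transporter, trimmed there by ERAP1, and placed in the groove with the help of tapasin, which holds the empty molecule to the transporter. NLRC5 is a transactivator that acts on class I promoters through the RFX, CREB/ATF and NF-Y proteins bound there. Interferons raise most of these genes through STAT and IRF factors, and NF-kB acts on the heavy chain promoters.

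Labels and marker genes disagreed in the mRNA experiments. Of 10 epithelial markers, the summed level was 5061 to 5272 CPM (counts scaled to the library total) in the 4 mRNA libraries labelled DC2.4, against 0.192 to 4.89 CPM in the 4 labelled 4T1 and 0.107 to 5.96 CPM in the 4 given vesicles. The 10 leukocyte markers summed to 8.53 to 30.5, 6819 to 6962 and 9307 to 12015 CPM in the same order. Itgam was at 0 in the 4 mRNA libraries labelled DC2.4, and Esrp2 in the 4 with vesicles. Ptprc, which encodes the leukocyte antigen CD45, had 0 to 19 counts in the mRNA libraries labelled DC2.4, and the keratin gene Krt8 had 0 to 15 counts in those labelled 4T1. The 8 dendritic markers summed to 14.7 to 28.5, 111 to 141 and 173 to 195 CPM, and the 6 lymphocyte markers reached at most 0.764 CPM in any library. Cd74 was the largest part of the dendritic sum in each group (means of 11.2 to 163 CPM). Flt3, H2-Ab1, H2-Aa, Ciita and Ccr7 reached at most 1.14 CPM in any library. Directions are therefore given for "the libraries labelled" with a line, not for the line. Transcripts of pancreas and lung (5 genes) summed to 80.7 to 183 CPM in the 6 preparation 1 libraries and were at 0 in the 6 of preparation 2. Depth was 14.1 to 26.0 M counts per library, so that 3 counts, taken as the floor, came to 0.115 to 0.213 CPM. The floor covers counting error only. Whether the preparations are separate cultures is not stated in the labels, and p-values therefore speak for the spread among the libraries at hand, which may be technical.

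How far the counts stand for each gene depends on the reference. Uniquely mapped reads were counted on GRCm39, which represents C57BL/6J and so the H2-b haplotype. The DC2.4 line derives from C57BL/6 mice, and 4T1 derives from BALB/c, which carries other alleles of H2-K1 and H2-D1 and a further heavy chain gene. Levels of these 2 genes between libraries of different lines can therefore not be told apart from how well their reads match the reference. Of all 50-base stretches in the annotated H2-K1 transcripts, 9.63% also stood letter for letter in a transcript of another gene, and 12.8% for H2-D1, most often in H2-Q genes and in each other. At 100 bases the shares were 0.957 and 3.59%, and at 50 bases they were 0 for B2m, Erap1 and Nlrc5, 0.442 and 0.655% for Tap1 and Tap2, and 2.87% for Tapbp. Counting ignored strand, and exonic bases that overlap another gene made up 29% for Tapbp, 18.5% for Tap2, 11.5% for Erap1 and 3.87% for Tap1, the last with the immunoproteasome gene Psmb9. Values of both heavy chains and of the overlapping genes are uncertain for these reasons. The shares do not bound this for the heavy chains, since loss of reads from alleles unlike the reference was not measured.

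Of the 8 genes, 5 lie together on GRCm39 chromosome 17: Tapbp (ENSMUSG00000024308, 34134873 to 34148266), H2-K1 (ENSMUSG00000061232, 34214991 to 34219321, minus strand), Tap1 (ENSMUSG00000037321, 34406527 to 34416199), Tap2 (ENSMUSG00000024339, 34422501 to 34435295) and H2-D1 (ENSMUSG00000073411, 35481706 to 35486475). B2m (ENSMUSG00000060802) is on chromosome 2 at 121978167 to 121983564, Erap1 (ENSMUSG00000021583) on chromosome 13 at 74787687 to 74841320, and Nlrc5 (ENSMUSG00000074151) on chromosome 8 at 95160984 to 95253900.

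Promoters are shown for H2-K1, H2-D1 and B2m, which encode the class I molecule itself, and for Erap1, the 1 member that fell under the label DC2.4. The RefSeq table on GRCm38.p6 matched 6 of the 8 genes, all but Tap2 and Nlrc5, and each entry runs from 250 bases before to 50 bases after the start, 5′ to 3′. Capitals mark matches, on either strand, to the core of the interferon-stimulated response element (TTTC, any 2 bases, TTTC), TTCNNNGAA (the STAT site GAS), GGGATTCCC or GGGA, any base, TTTCC (kB sites), CCAAT (Y box) and TGACGTCA (CRE), none of which overlapped another match.
H2-K1, chr17:34000298-34000597, minus strand, the first of 2 entries: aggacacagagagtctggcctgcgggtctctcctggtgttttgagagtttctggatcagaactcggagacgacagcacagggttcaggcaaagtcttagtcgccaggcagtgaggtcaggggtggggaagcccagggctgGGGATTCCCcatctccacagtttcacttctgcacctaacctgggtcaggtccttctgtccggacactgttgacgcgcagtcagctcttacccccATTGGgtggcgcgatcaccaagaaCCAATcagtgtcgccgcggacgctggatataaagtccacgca
H2-D1, chr17:35262844-35263143, plus strand: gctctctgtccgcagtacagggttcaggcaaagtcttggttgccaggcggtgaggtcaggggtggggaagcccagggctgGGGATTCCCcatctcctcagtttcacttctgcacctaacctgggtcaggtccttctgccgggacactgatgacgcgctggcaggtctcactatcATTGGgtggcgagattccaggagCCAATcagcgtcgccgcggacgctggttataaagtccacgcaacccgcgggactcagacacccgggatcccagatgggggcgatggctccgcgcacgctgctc
B2m, chr2:122147437-122147736, plus strand: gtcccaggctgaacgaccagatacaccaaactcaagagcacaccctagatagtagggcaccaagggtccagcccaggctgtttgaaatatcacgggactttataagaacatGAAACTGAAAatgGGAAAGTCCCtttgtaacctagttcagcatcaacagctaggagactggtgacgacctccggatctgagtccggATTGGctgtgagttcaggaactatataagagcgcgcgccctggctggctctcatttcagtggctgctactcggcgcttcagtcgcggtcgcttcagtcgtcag
Erap1, chr13:74639603-74639902, plus strand: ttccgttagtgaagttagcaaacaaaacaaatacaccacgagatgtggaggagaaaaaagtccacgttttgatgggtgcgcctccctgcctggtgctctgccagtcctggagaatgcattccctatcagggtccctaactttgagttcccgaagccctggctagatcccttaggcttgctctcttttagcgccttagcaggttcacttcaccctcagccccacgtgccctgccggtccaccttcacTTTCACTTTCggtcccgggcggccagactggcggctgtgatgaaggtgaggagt

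Both heavy chain promoters held GGGATTCCC, which was found in 0.353% of 32851 promoters of the same length, and a pair of Y boxes (at least 1 in 37.4%). Aligned to each other, the heavy chain promoters were identical in 206 of 228 columns (90.4%). B2m held the response element core at positions -139 to -130 and a kB site (GGAAAGTCCC, 0.411% of promoters for this form) at -126 to -117 from the start. Erap1 held the core at -4 to 6 (3.44% of promoters). Neither the GAS letters (8.3% of promoters) nor the CRE (1.79%) were in the windows of the 6 genes. Of the other 2 genes, Tap1 held 1 Y box and Tapbp 2. These are exact matches of letters and not measured binding. Near matches were not searched, so a promoter without a match may still hold a related form of the element.

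The genes of the class I molecule stood above those of peptide supply and regulation in each group. Per kb of exonic length (RPKM, CPM divided by exonic kb), B2m was highest in each group, at 394 ± 4.11 (SD, n = 2) to 987 ± 10.8, followed by H2-D1 (117 ± 1.75 to 272 ± 7.11) and H2-K1 (46.8 ± 0.58 to 229 ± 1.14). Tapbp held rank 4 in each group, at 14.6 ± 0.0853 to 28.1 ± 0.532 RPKM. Nlrc5 was last in 5 of the groups, at 0.883 ± 0.086 to 4.79 ± 0.0168 RPKM, and in EXOmock stood at 5.7 ± 0.282 RPKM beside Tap2 at 5.42 ± 0.503. Tap2 exceeded Tap1 in the mRNA libraries labelled DC2.4 (5.59 ± 0.0376 against 1.77 ± 0.242 RPKM in Mock), while Tap1 exceeded Tap2 in those labelled 4T1 (12.4 ± 0.269 against 5.37 ± 0.14 RPKM in Mock) and in both vesicle groups.

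**Figure D1:**
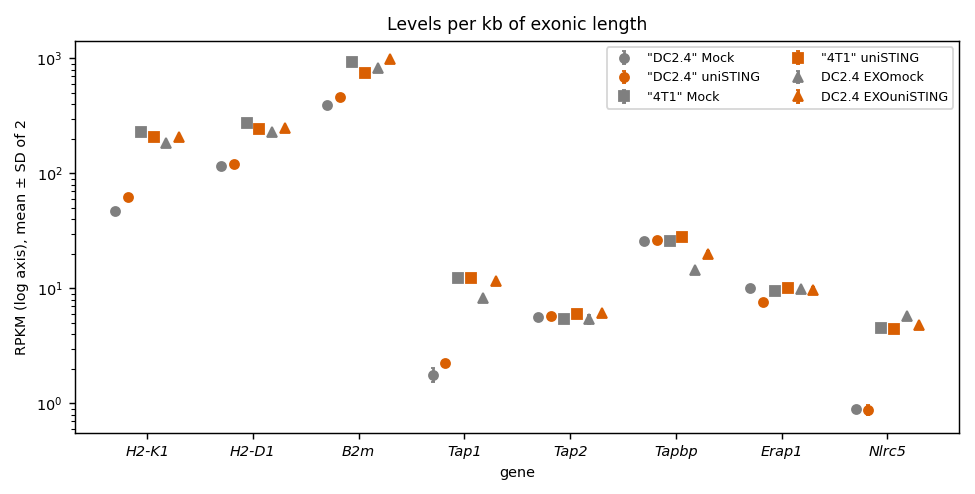
Mean level of each gene per kb of exonic length (RPKM, log axis) in the 6 groups, with bars for the SD of 2 libraries. B2m lies above both heavy chains in each group. H2-K1, H2-D1, B2m, Tap1 and Nlrc5 each lie lower in the mRNA libraries labelled DC2.4 than in the rest.

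The Mock groups of the mRNA experiments show how the genes stood in each kind of library without uniSTING. H2-K1 was at 139 and 136 CPM under the label DC2.4 and at 674 and 669 CPM under the label 4T1. Tap1 was at 8.74 and 10.6 against 69.2 and 67.1 CPM, and Nlrc5 at 7.77 and 7.49 against 38.9 and 37.8 CPM. None of these groups overlapped. Relative to the label DC2.4, edgeR's quasi-likelihood test put the label 4T1 higher by 2.72 on the log2 scale for Tap1 (SE 0.07, adjusted p = 3.6e-14), 2.25 for Nlrc5 (SE 0.08, adjusted p = 1.6e-12), 2.21 for H2-K1 (SE 0.02, adjusted p = 1.4e-18), 1.15 for B2m (SE 0.02, adjusted p = 6.62e-16) and 1.14 for H2-D1 (SE 0.02, adjusted p = 7.43e-16). Tap2 stood at -0.13 (adjusted p = 0.138), Tapbp at -0.04 (adjusted p = 0.365) and Erap1 at -0.14 (adjusted p = 0.0187, a call lost in 6 of 13 alternatives, among them leaving out the label DC2.4 Mock or the label 4T1 Mock library of preparation 1). That makes 5 genes higher and 1 lower, where 83% of 14863 genes tested were called (40.5% higher and 42.4% lower). For H2-K1 and H2-D1, these differences cannot be told apart from how well reads of each line match the reference, whatever their p-values. In bulk RNA, fewer cells of a type and less RNA per cell cannot be told apart.

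Between the libraries with leukocyte markers, EXOmock differed from Mock labelled 4T1. Tapbp was at 52.8 and 53.2 CPM in EXOmock against 93.9 and 95.6 CPM (log2 fold change -0.84, SE 0.05, adjusted p = 3.05e-09), and Tap1 at 45.8 and 44.2 against 69.2 and 67.1 CPM (-0.60, SE 0.05, adjusted p = 3.54e-07). H2-K1 (-0.32), H2-D1 (-0.24) and B2m (-0.16) were also lower, and Nlrc5 was higher, at 50.1 and 46.7 against 38.9 and 37.8 CPM (0.33, SE 0.06, adjusted p = 0.00045). Thus 5 genes were lower and 1 higher, where 53.7% of all genes were called (27.6% lower and 26.1% higher). Label, vehicle and experiment all differ between these groups and cannot be told apart.

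**Figure D2:**
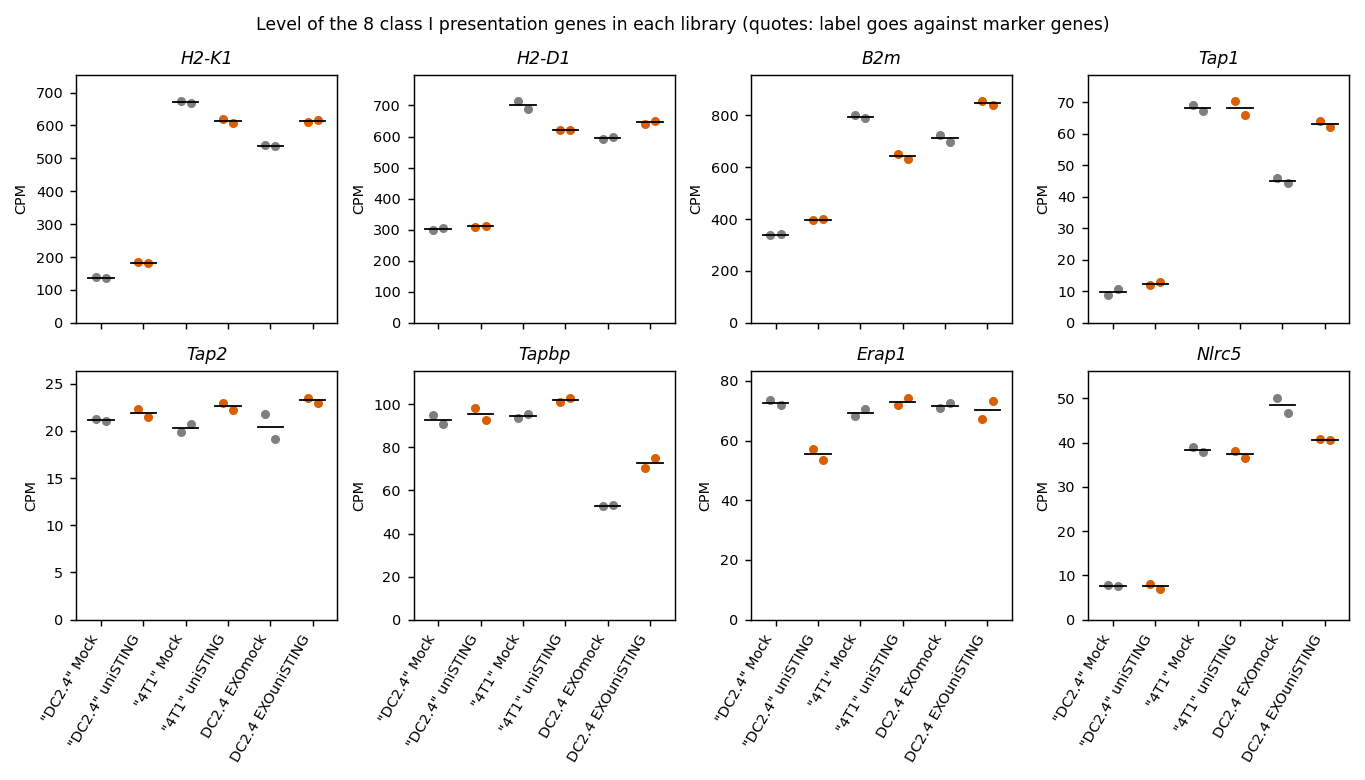
Level in CPM of each gene in each of the 12 libraries, preparation 1 to the left of preparation 2, with a line at the mean of 2. Grey points are controls and orange points uniSTING or EXOuniSTING. Quotation marks show labels that went against marker genes. H2-K1, H2-D1, B2m, Tap1 and Nlrc5 are lowest in the mRNA libraries labelled DC2.4, while Tap2 keeps between 19.1 and 23.5 CPM throughout.

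The first comparison asked what uniSTING mRNA did in the libraries labelled DC2.4, those with epithelial markers. H2-K1, B2m and Tap1 were higher after uniSTING mRNA, by 1.19 to 1.34-fold, and Erap1 was lower. H2-K1, a heavy chain gene, rose from 139 and 136 CPM to 184 and 181 CPM (log2 fold change 0.43, SE 0.02, adjusted p = 4.43e-09). Both treated libraries lay above both controls, and within preparations the change was 0.43 and 0.42. B2m, the light chain gene, rose from 337 and 342 to 396 and 400 CPM (0.25, SE 0.02, adjusted p = 3.54e-07). Tap1 rose from 8.74 and 10.6 to 11.9 and 12.8 CPM (0.36, SE 0.09, adjusted p = 0.006). The groups do not overlap, but leaving out the Mock library of preparation 1 ended the Tap1 call, as did leaving out the uniSTING library of preparation 2 (range 0.24 to 0.52 over the 4 libraries left out in turn). Psmb9, named here because its exons overlap those of Tap1, had a mean of 10 CPM without and 9.4 CPM with uniSTING mRNA (adjusted p = 0.678).

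H2-D1, the other heavy chain gene, moved far less, from 299 and 305 to 308 and 313 CPM (log2 fold change 0.06, SE 0.02, adjusted p = 0.0397). It passed the threshold, but 9 of 14 alternatives ended the call. Erap1 fell from 73.6 and 71.8 to 57.2 and 53.6 CPM (-0.38, SE 0.05, adjusted p = 4.07e-05), with groups well apart. Its exons share 834 bases with Cast, a gene on the other strand with 30639 counts over all libraries. The part of this overlap in the fall of Erap1 was not tested. Tap2 was at 21.3 and 21.1 against 22.3 and 21.5 CPM (0.07, adjusted p = 0.528), Tapbp at 95.2 and 90.7 against 98.2 and 92.6 CPM (0.06, adjusted p = 0.341) and Nlrc5 at 7.77 and 7.49 against 8.01 and 6.98 CPM (-0.01, SE 0.10, adjusted p = 0.955). The libraries of Tapbp and Nlrc5 overlapped between groups.

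In all, 4 of the 8 genes were called higher and 1 lower, none of them 2-fold, with a median log2 fold change of 0.06 against 0.00 over all genes. Calls were frequent in this comparison (41.7% of 14863 genes, 20.8% higher and 20.9% lower), so that 4 of 8 higher is read against a background of about 1 gene in 5. Short genes were higher and long ones lower here. The trend at the length of B2m (0.86 kb of exons) was 0.21, and with this trend taken out the value of B2m was 0.04 (adjusted p = 0.122) and that of H2-D1 was -0.06 (adjusted p = 0.0487), while H2-K1 (0.34), Tap1 (0.36) and Erap1 (-0.30) were still called. The summed epithelial markers were 5061 to 5112 CPM in Mock and 5271 to 5272 CPM in uniSTING, and the leukocyte markers 8.53 to 20.2 and 11.9 to 30.5 CPM. Within the leukocyte sum, Lyz2 had 155 counts in Mock and 290 in uniSTING in preparation 1, and 0 in both groups in preparation 2. Of 10 epithelial markers 2 rose (Krt19 by 1.00 and Cldn4 by 0.51), and of 10 leukocyte markers 1 rose (Cd68 by 0.54). The dendritic sum went from 14.7 to 17.3 CPM in Mock to 21.1 to 28.5 CPM in uniSTING. Their part in the result was not tested.

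Under the same label, 28 of 46 genes in the related lists were called, 17 higher and 11 lower (60.9%, against 41.7% of all genes), leaving interferon-stimulated genes aside. Single lists are small, and all genes were called higher in 20.8% and lower in 20.9%. The share called lay near that of all genes for nonclassical genes (3 of 8). It lay above for chaperone genes (3 higher and 2 lower of 7), peptidase genes (2 and 3 of 6) and IRF, STAT and NF-kB genes (4 and 2 of 8). The immunoproteasome, which cuts peptides for class I, and its activator gave a list of 5 genes, of which 2 rose and 1 fell. The proteasome activator genes Psme2 (0.71, adjusted p = 2.38e-07) and Psme1 (0.21) rose, and Psmb10, an immunoproteasome gene, fell by 0.20. Of 8 nonclassical heavy chains, 3 rose, namely H2-T23 (0.81), H2-T22 (0.55) and H2-T24 (1.30). Of 7 chaperone genes, 3 rose and 2 fell, with the loading chaperone genes Calr at 0.36 and Pdia3 at 0.23 and the chaperone gene Hspa5 at 0.19. Of 6 peptidase genes, 2 rose and 3 fell, with Tpp2, a cytosolic peptidase, at -0.37, Lnpep at -0.17 and Thop1 at -0.09.

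Among the factors that act on class I promoters, Irf9, a subunit of the complex that carries the type I interferon signal, rose from 9.35 to 20.4 CPM (log2 fold change 1.14, adjusted p = 1.33e-06). Stat2, its partner, rose by 0.48, and the NF-kB gene Nfkb1 fell by 0.25. In that list 4 of 8 rose and 2 fell, beside 20.8% of all genes higher and 20.9% lower. Of 8 genes for RFX, CREB/ATF and NF-Y proteins, 2 rose and 2 fell, with Rfx5 at 0.44, Nfya at -0.21 and Creb1 at -0.19. Of 4 interferon receptor genes, Ifngr1 rose by 0.16, Ifnar1 fell by 0.16 and Ifngr2 stood at 0.05 (adjusted p = 0.585). For scale, all 10 interferon-stimulated genes rose, with a median of 2.07, among them Irf7 (2.12), Ifit1 (2.20) and Bst2 (0.75).

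**Figure D3:**
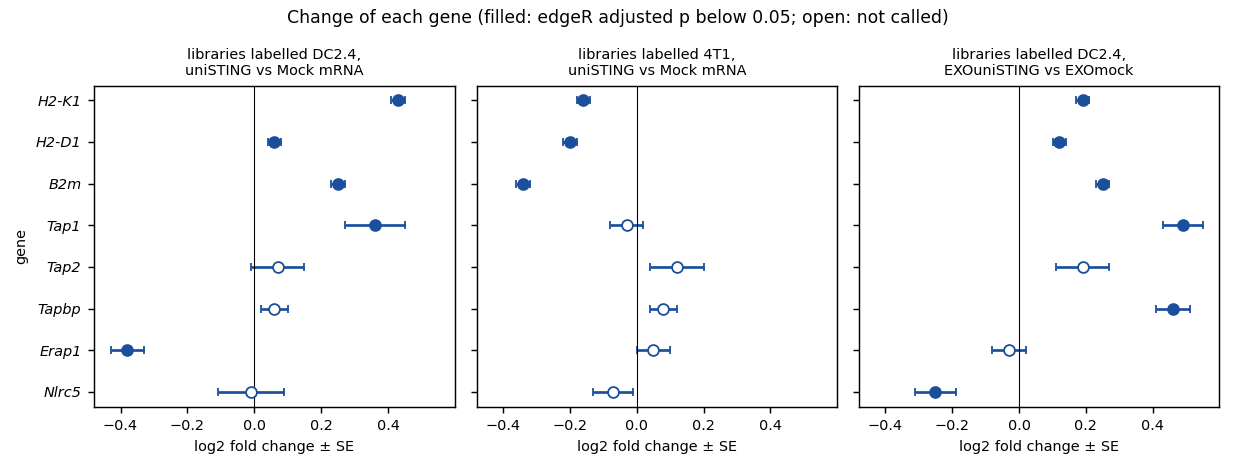
Log2 fold change ± SE of each gene in the 3 comparisons, from edgeR, with filled points for an adjusted p below 0.05. H2-K1, H2-D1 and B2m lie above 0 on the left and right and below 0 in the middle panel, and no gene reaches a change of 0.5.

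The next comparison concerned uniSTING mRNA under the label 4T1, where leukocyte markers were found, and here both chains of the class I molecule were lower after uniSTING mRNA. B2m fell from 801 and 789 to 651 and 633 CPM (log2 fold change -0.34, SE 0.02, adjusted p = 5.67e-08), H2-D1 from 714 and 688 to 620 and 620 CPM (-0.20, SE 0.02, adjusted p = 5.05e-06) and H2-K1 from 674 and 669 to 619 and 609 CPM (-0.16, SE 0.02, adjusted p = 4.3e-05). In each, both treated libraries lay below both controls. The genes of peptide supply and loading showed no such fall. Tap1 stood at 69.2 and 67.1 against 70.3 and 65.8 CPM (-0.03, adjusted p = 0.709), with overlapping groups. Tap2 was at 19.9 and 20.7 against 23 and 22.2 CPM (0.12, adjusted p = 0.276). Tapbp was at 93.9 and 95.6 against 101 and 103 CPM (0.08, SE 0.04, adjusted p = 0.198). Both treated libraries of Tap2 and Tapbp lay above both controls, but the test was not passed. Erap1 was at 68.1 and 70.6 against 71.8 and 74.3 CPM, without overlap (0.05, adjusted p = 0.535), and Nlrc5 at 38.9 and 37.8 against 38.1 and 36.6 CPM (-0.07, adjusted p = 0.491).

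So 3 of 8 genes were lower, where 28.3% of 14863 genes were called (12.6% higher and 15.7% lower), and the median of the 8 was -0.05 against -0.01 for all genes. No gene of the 8 was called higher, by edgeR at an adjusted (0) or unadjusted (0) p below 0.05, by DESeq2 (0) or by limma-voom (0). Leukocyte markers also moved between these groups: 5 of 10 fell and 1 rose, with Fcer1g at -0.46, Laptm5 at -0.45 and Cd68 at -0.40. The sum of the 10 went from 6917 to 6962 CPM in Mock to 6819 to 6834 CPM in uniSTING. Its largest part, Lyz2, had means of 2856 CPM in Mock and 3273 CPM in uniSTING. The dendritic sum was 111 to 113 CPM in Mock and 129 to 141 CPM in uniSTING, with Cd74 higher (means of 75.3 and 107 CPM) and Itgax lower (25.6 and 16.4 CPM, log2 fold change -0.67, adjusted p = 0.00104). Their part in the fall of B2m and the heavy chains was not tested.

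In the related lists 23 of 46 genes were called (50%, against 28.3% of all genes), 10 higher and 13 lower. All 4 interferon receptor genes fell, by 0.36 for Ifngr1, 0.32 for Ifnar1, 0.28 for Ifngr2 and 0.27 for Ifnar2. Of 8 IRF, STAT and NF-kB genes 4 fell, with Rela, the main activating NF-kB subunit gene, at -0.34, Nfkb1 at -0.25 and Irf8, a myeloid factor, at -0.23. Of the 8 RFX, CREB/ATF and NF-Y genes 4 fell, with Nfyb at -0.34, Rfx5 at -0.22 and Nfya at -0.11. By contrast 3 of 5 immunoproteasome genes rose, Psmb8 by 0.46 (adjusted p = 4.25e-05), Psmb9 by 0.35 and Psmb10 by 0.21. Of 7 chaperone genes 4 rose, with Pdia3 at 0.17, Uggt1 at 0.16 and Calr at 0.12, and of 6 peptidase genes 2 rose, Thop1 and Lnpep by 0.17 each, with Tpp2 at 0.06 (adjusted p = 0.184). Nonclassical genes gave 1 rise (H2-T24, 1.14) and 1 fall (H2-T22, -0.19), with H2-M3 at 0.26 (adjusted p = 0.0921). Of 10 interferon-stimulated genes 3 rose and 1 fell, with Rsad2 at 1.72, Isg15 at 1.07 and Bst2 at -0.20.

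The third comparison concerned vesicles from uniSTING-treated 4T1 cells. Here 5 of the 8 genes rose, the transporter gene Tap1 and the tapasin gene Tapbp the most, and the regulator gene Nlrc5 was lower. Tap1 rose from 45.8 and 44.2 CPM in EXOmock to 64.0 and 62.2 CPM in EXOuniSTING (log2 fold change 0.49, SE 0.06, adjusted p = 6.39e-05). Tapbp rose from 52.8 and 53.2 to 70.3 and 75.3 CPM (0.46, SE 0.05, adjusted p = 5.13e-05). In both genes the treated libraries stood well above the controls, and within preparations the changes were 0.48 and 0.49 for Tap1 and 0.41 and 0.50 for Tapbp. Both stayed below the levels in Mock and uniSTING labelled 4T1 (65.8 to 70.3 CPM for Tap1 and 93.9 to 103 CPM for Tapbp).

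B2m rose from 724 and 699 to 855 and 842 CPM (log2 fold change 0.25, SE 0.02, adjusted p = 2.67e-06), H2-K1 from 540 and 538 to 612 and 616 CPM (0.19, SE 0.02, adjusted p = 3.16e-05) and H2-D1 from 591 and 597 to 640 and 651 CPM (0.12, SE 0.02, adjusted p = 0.00131). None of these groups overlapped. Tap2 was at 21.8 and 19.1 against 23.5 and 23 CPM, which did not overlap either but missed the threshold (0.19, SE 0.08, adjusted p = 0.147). Erap1 was at 70.8 and 72.6 against 67.1 and 73.3 CPM, with overlapping groups (-0.03, adjusted p = 0.813).

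Nlrc5 went the other way, from 50.1 and 46.7 CPM in EXOmock to 40.8 and 40.6 CPM in EXOuniSTING (log2 fold change -0.25, SE 0.06, adjusted p = 0.0189). The groups did not overlap, but the call was lost with DESeq2 and without the EXOmock library of preparation 1 or either EXOuniSTING library (-0.30 to -0.20 over the 4 libraries left out in turn). The count of 5 higher and 1 lower stands beside 16.1% of 14863 genes called (7.96% higher and 8.14% lower), and the median of the 8 was 0.19 against 0.00 for all genes. No gene of the 8 changed 2-fold. Beside this, 3 of 10 leukocyte markers rose (Cd68 by 0.19, Spi1 by 0.16 and Laptm5 by 0.16) and Itgam fell by 0.26. Lyz2, the largest part of the leukocyte sum, stood at -0.49 (adjusted p = 0.206), with means of 8625 CPM in EXOmock and 6157 CPM in EXOuniSTING. The leukocyte sum went from 11939 to 12015 CPM in EXOmock to 9307 to 10077 CPM in EXOuniSTING, the dendritic sum from 173 to 179 to 192 to 195 CPM, and their part in the result was not tested.

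With vesicles, 10 of 46 genes in the related lists were called (21.7%, against 16.1% of all genes), leaving interferon-stimulated genes aside. Both proteasome activator genes rose, Psme2 by 0.32 and Psme1 by 0.23, which are 2 of 5 in the immunoproteasome list, with Psmb10 at 0.10 (adjusted p = 0.169). Nonclassical H2-T23 (0.59), H2-T22 (0.38) and H2-T24 (1.10) rose, 3 of 8. Irf9 rose from 13.1 to 22.4 CPM (log2 fold change 0.78, adjusted p = 0.000275) and was the 1 of 8 IRF, STAT and NF-kB genes called, with Stat2 at 0.27 (adjusted p = 0.06). Of 7 chaperone genes 3 fell, the tapasin-related gene Tapbpl by 0.38, Hspa5 by 0.14 and Ganab by 0.13. Nfyb fell by 0.28, the 1 call of 8 in its list. Among 6 peptidase genes the smallest adjusted p was that of Lap3 (0.06, adjusted p = 0.221), and among 4 receptor genes that of Ifnar1 (0.12, adjusted p = 0.0555). Interferon-stimulated genes rose in 9 of 10 cases with a median of 3.13, among them Oasl2 (2.92), Rsad2 (3.27) and Irf7 (2.05). That median rests in part on few counts. Over both EXOmock libraries Ifi44 had 0 counts, Cxcl10 had 7, and Ifit3 and Usp18 had 10 each.

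**Figure D4:**
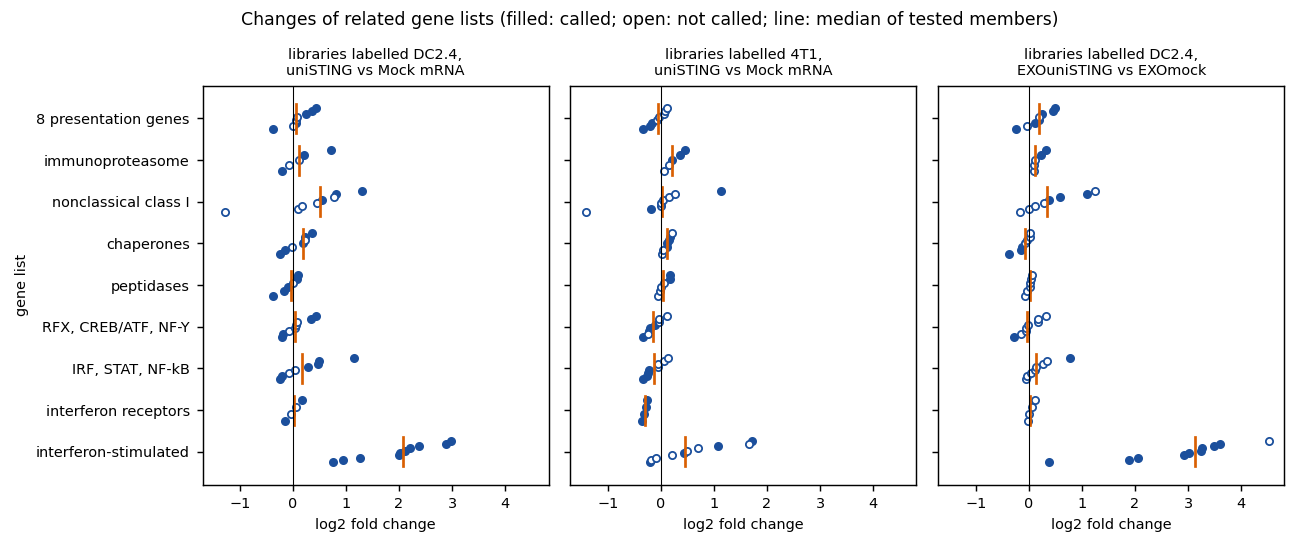
Log2 fold changes of the 8 genes and of 8 related lists in the 3 comparisons. Each point is a tested gene, filled where called, and the orange line is the list's median. Interferon-stimulated genes have medians of 2.07, 0.46 and 3.13 from left to right, and the 8 presentation genes 0.06, -0.05 and 0.19. The median of 3.13 rests in part on genes with few counts in EXOmock.

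Set side by side, H2-K1, H2-D1 and B2m were the 3 genes called in all 3 comparisons, where 5.35% of all genes were, and Tap2 the 1 called in none. Under the label DC2.4, 9 of 14 alternatives ended the H2-D1 call and 1 turned its direction, and taking out the length trend ended the call of B2m. Tests of the difference between responses, in the same model, called 5 genes between the labels DC2.4 and 4T1 with mRNA (31.1% of all genes called, 16% higher and 15.1% lower). The response under the label DC2.4 was higher by 0.59 for B2m (SE 0.03, adjusted p = 3.59e-09), 0.58 for H2-K1 (SE 0.03, adjusted p = 5.99e-09), 0.39 for Tap1 (SE 0.11, adjusted p = 0.0108) and 0.26 for H2-D1 (SE 0.03, adjusted p = 1.04e-05) on the log2 scale, and that of Erap1 differed by -0.42 (SE 0.07, adjusted p = 0.00042). The Tap1 difference lost its call without the label DC2.4 Mock library of preparation 1 or the label DC2.4 uniSTING library of preparation 2 (range 0.28 to 0.55 over 8 libraries).

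Against vesicles, the mRNA response under the label 4T1 was lower for B2m (-0.59, SE 0.03, adjusted p = 8.92e-09), Tap1 (-0.52, SE 0.08, adjusted p = 0.00017), Tapbp (-0.38, SE 0.07, adjusted p = 0.00073), H2-K1 (-0.35, SE 0.03, adjusted p = 1.08e-06) and H2-D1 (-0.32, SE 0.03, adjusted p = 2.25e-06), 5 genes where 28% of all genes were called (15% lower). Between mRNA under the label DC2.4 and vesicles, H2-K1 was higher (0.24, SE 0.03, adjusted p = 5.26e-05) and Tapbp (-0.41, SE 0.07, adjusted p = 0.00044) and Erap1 (-0.35, SE 0.07, adjusted p = 0.00252) were lower with mRNA, 3 genes where 30.6% were called (15.3% in each direction). The responses of B2m (difference 0.00, SE 0.03) and Tap1 (-0.13, SE 0.11) did not pass there, and neither did those of Nlrc5 in any of the 3 tests. With the length trend taken out of both responses, an alternative chosen after seeing the data, B2m (-0.21, adjusted p = 0.000129) and H2-D1 (-0.18, adjusted p = 0.000491) were lower with mRNA, and H2-K1 stood at 0.15 (adjusted p = 0.00261). Label, cell type by markers, vehicle and time cannot be told apart in these differences.

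Profiles over all 12 libraries were compared on centred log2 CPM with 10541 genes of at least 5 CPM on average. The nearest 2 were Rab3d and Tmem206 for H2-K1 (root mean square distance 0.05 and 0.06), Lamp1 and Chp1 for H2-D1 (0.04 and 0.05), Echdc3 and Bcs1l for B2m (0.06 and 0.07), and Dennd4a and Cnnm2 for Nlrc5 (0.11 and 0.12). Near Tap2 was Cox5a (0.06). Erap1 was nearest to Ino80 and Fem1b (0.06 each), Tapbp to Tspan14 (0.09) and Ccnf (0.10), and Tap1 to Ftl1-ps1 (0.11) and Ftl1 (0.12), the last a gene and its pseudogene. The step between the 4 mRNA libraries labelled DC2.4 and the other 8 held 89.2 to 98.5% of the profile variance of H2-K1, H2-D1, B2m, Tap1 and Nlrc5, so likeness there is mostly likeness in that step. It held 7.48 to 24.5% for Erap1, Tap2 and Tapbp.

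**Figure D5:**
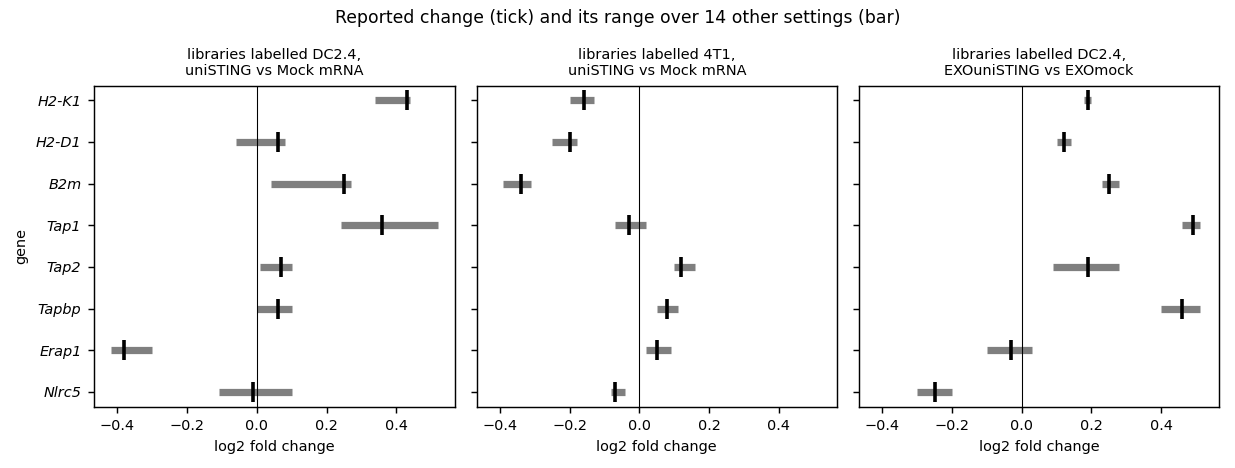
Reported log2 fold change of each gene (tick) and its range over 14 other settings (bar) in the 3 comparisons. In the left panel H2-D1 spans 0, from -0.06 to 0.08, and B2m reaches down to 0.04. The bars of the called genes in the other panels stay on 1 side of 0.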

How the data were processed

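RNA of 12 libraries in 6 groups of 2 was measured by RNA sequencing. The deposited files give whole-number counts per gene, not normalized. HISAT2 alignment to GRCm39 is named in the submitters' processing notes. The count step, per the file headers, was featureCounts (Subread 2.0.1) on uniquely mapped read pairs, over exons by gene, with no strand option and Ensembl release 103. Symbols came from GENCODE M21 names, which matched 52093 of 53647 identifiers. The members and gene lists were chosen with earlier results of these data known.

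All 12 libraries were fitted with edgeR 4.0.16 in R 4.3.3 (1 mean per group, TMM, filterByExpr, 14863 genes, quasi-likelihood F test, Benjamini-Hochberg adjustment over all genes, threshold 0.05). All p-values are from this fit unless another tool is named. The common biological coefficient of variation was 3.05%. CPM and RPKM are over the totals of the counts, and each SE is the log2 fold change over the root of its F. The procedure was also run on counts simulated from the means and spread of this fit, with libraries drawn independently. Such counts cannot show an effect of paired preparations or of technical replication, and the outcome is not given here. Named were all 8 members and, per list and comparison, the 3 genes with the smallest p (other genes named were chosen after their values were seen). Same-numbered preparations deviated together (r 0.21 to 0.73 over 15 pairs of groups, across 10551 genes), so the preparation number pairs libraries in the data. A fit with it as a block changed no count of members called.

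Alternatives were DESeq2 1.42.0, upper-quartile and RLE factors, library totals, other filters on low counts, limma-voom (limma 3.58.1), only the libraries compared, the block, leaving out each library, removal of a trend by exonic length and folds within 1 preparation. Shared stretches were counted on GENCODE M21 transcripts. No protein sequence was used here, and a few values that the naming rule would give are not reported here.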

Additional observations from a re-analysis of the deposited data

Results flagged for a closer look

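Of 24 tests of a difference between responses (8 genes, 3 pairs of comparisons), 13 passed an adjusted p of 0.05 in edgeR, and each is given as a value. Responses to uniSTING mRNA under the label DC2.4, less those under the label 4T1, were 0.58 for H2-K1, 0.26 for H2-D1, 0.59 for B2m, 0.39 for Tap1 and -0.42 for Erap1 on the log2 scale. Less the response to vesicles, those under the label DC2.4 were 0.24 for H2-K1, -0.41 for Tapbp and -0.35 for Erap1. Less the response to vesicles, those under the label 4T1 were -0.35 for H2-K1, -0.32 for H2-D1, -0.59 for B2m, -0.52 for Tap1 and -0.38 for Tapbp. The largest differences in size in this fit were thus those of B2m, which rose in the label DC2.4 and vesicle comparisons and fell in the other. Between the 2 labels, alternatives gave 0.43 to 0.61 for B2m and 0.54 to 0.60 for H2-K1, so their order is not settled. The rise of B2m under the label DC2.4 was not called with the length trend taken out (0.04).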

How the results depend on the processing

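Of 24 results for single genes in the 3 comparisons, 19 kept their side of the threshold in all 14 alternatives with a test. So did 20 of 24 differences (18 alternatives) and 14 of 16 contrasts of control groups (13 alternatives). The called ones among these also kept their direction. Some uncalled values changed sign, such as Nlrc5 under the label DC2.4 (-0.11 to 0.10). With the length trend taken out, the label DC2.4 had 2 members higher and 2 lower in place of 4 and 1, since B2m went to 0.04 and H2-D1 turned to -0.06. Taken out of both responses, chosen after seeing the data, it gave 4 members lower in place of 2 in the difference of label DC2.4 and vesicles. Leaving out 1 library gave 2 to 3 members higher under the label DC2.4. The 1 member lower with vesicles (Nlrc5) became 0 with DESeq2 and ranged from 0 to 1 without 1 library. With only the libraries compared, 1 member (Tapbp) was higher under the label 4T1 and 1 (Nlrc5) in the difference of label 4T1 and vesicles, in place of 0. The 1 member lower in Mock labelled 4T1 against DC2.4 (Erap1) became 0 with library totals, with either other filter and with only the libraries compared, and ranged from 0 to 1 without 1 library. EXOmock against Mock labelled 4T1 had 2 members higher with upper-quartile factors. The cause was not tested. With the replicate block, the 3 comparisons had 4, 0 and 5 members higher and 1, 3 and 1 lower, as without it.

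Over all genes, DESeq2 called 1242 higher under the label 4T1 (edgeR 1878), 745 lower with vesicles (1210) and 1267 higher in the difference of the 2 (1929). Without 1 library, calls fell to as few as 1480 lower under the label 4T1 (2331), 603 higher with vesicles (1183) and 689 lower with vesicles (1210). With TMM factors the 48 group levels moved by -3.74 to 5.69%, 31 of them by more than their SD. Depth limits Tap1 and Nlrc5 under the label DC2.4, at 136 to 321 counts a library.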
